A study of Mus musculus with 20 samples.

Results

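The question described here is where antibiotics changed the liver's transcript response to anti-CD40. All 20 of the 20 liver RNA-seq libraries enter it, and the quantity is a difference of differences: the anti-CD40 effect in mice given antibiotics (ABX) minus the anti-CD40 effect in mice without them. Each library is taken as the liver of a separate mouse, from the number in its label, with 5 mice per group: control without ABX (mice 6 to 10), control with ABX (mice 1 to 5), anti-CD40 without ABX (mice 16 to 20) and anti-CD40 with ABX (mice 11 to 15). The antibody's clone, dose and timing, the antibiotics, and the strain, sex and age of the mice are not stated in the labels or file headers. A positive difference means a larger rise or a smaller fall with ABX, and a negative difference the opposite.

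CD40 is a receptor of the tumour necrosis factor receptor family on macrophages, dendritic cells, B cells and endothelium, and its engagement activates NF-kB and drives cytokine release. Blood from the gut reaches the liver first through the portal vein, so Kupffer cells, sinusoidal endothelium and hepatocytes meet microbial products before other organs do. Antibiotics deplete gut bacteria and also change drug and bile acid metabolism in the liver.

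Levels are CPM on the stretch of each gene that was measured, that is, counts brought to a common library size by the trimmed mean of M-values (TMM). Reads of these mouse libraries had been counted by the authors at human exon coordinates, so each gene was measured over only part of its exons, with a median of 372 bp or 7.62% of exon length over the 2200 genes tested. Levels are therefore not compared between genes. Library totals ran from 5053014 to 7618736 counts. Albumin (Alb) took a mean of 15.1% of counts in control livers without ABX, 17.6% with ABX, 6.75% after anti-CD40 without ABX and 8.88% after anti-CD40 with ABX. The tissue label fits this hepatocyte transcript, and in whole liver fewer cells of a type and less RNA per cell cannot be told apart. Effects and differences are log2 values ± standard error (SE) of the fit, levels are mean ± SD with n = 5, and a gene was called where edgeR's quasi-likelihood test gave a Benjamini-Hochberg adjusted p under 0.05 over all 2200 genes.

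The difference between the 2 anti-CD40 effects was called for 166 of 2200 genes, 7.55% of those tested. It lay above 0 for 96 genes (4.36%) and below 0 for 70 (3.18%), and it was at least 2-fold for 51. Over all genes the median difference was -0.01. These shares of all genes are the ones to set beside the counts of called genes in each list below. Scaled by library totals instead of TMM, which moved the median over all genes to 0.10, 137 genes were called and 80.3% of them lay above 0, against 57.8% with TMM. Anti-CD40 itself changed far more transcripts, with 1333 genes (60.6%) called without ABX and 1133 (51.5%) with ABX, so most of its response did not pass the test for an ABX difference. Without ABX 31.8% of all genes tested rose and 28.8% fell, and with ABX 26.6% rose and 24.9% fell. Of 700 genes that rose without ABX, 9.86% had a called difference, and of 633 that fell, 11.1%.

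Blunting was the most frequent class, by a margin that depended on scaling. A response was classed as blunted when the larger of the 2 effects, itself called, was the one without ABX, enhanced when it was the one with ABX, and reversed when both effects were called with opposite signs. Of the 166 genes, 103 (62%) were blunted, 55 (33.1%) enhanced and 8 (4.82%) reversed. With library totals 69 were blunted, 59 enhanced and 9 reversed. The 57 blunted falls had a median effect of -1.01 without ABX and -0.31 with ABX, and the 46 blunted rises had medians of 1.12 and 0.27. The 35 enhanced rises had medians of 0.29 and 0.97, and the 20 enhanced falls -0.24 and -1.22. In 59 of the 103 blunted genes the effect with ABX was not itself called, and in 27 of the 55 enhanced genes the effect without ABX was not called. Rise or fall names the sign of the larger effect only. The 2 effects had the same sign in 26 of 35 enhanced rises, 37 of 46 blunted rises, 17 of 20 enhanced falls and 44 of 57 blunted falls. In the others the smaller effect had the opposite sign but was not called, so they do not count as reversed.

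**Figure D1:**
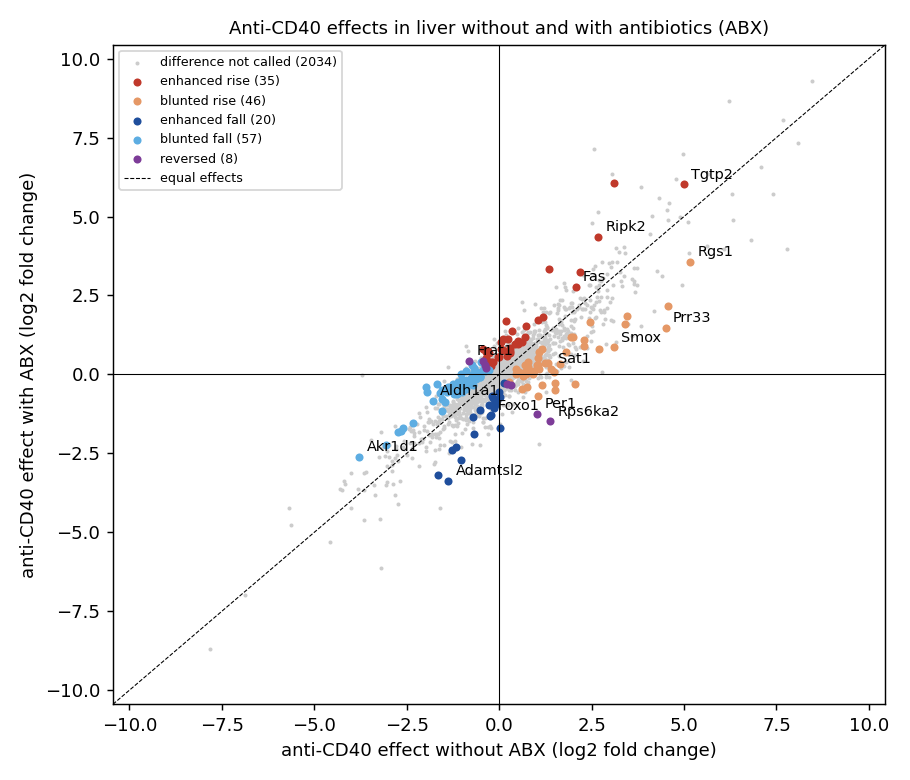
Anti-CD40 effect without ABX (x axis, log2 fold change) against the effect with ABX (y axis, log2 fold change) for the 2200 genes tested, with genes whose difference was called coloured by class and the dashed line marking equal effects. The 46 blunted rises lie below the line on the right, the 57 blunted falls above it on the left, and Per1 and Rps6ka2 lie furthest to the lower right among the 8 reversed genes.

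Per1, a repressor in the circadian clock that glucocorticoids and other signals also induce, had the smallest adjusted p of the 8 reversed genes. Its measured 177 bp lie in exons between the bounds chr11:69103549-69109094 (mm10, plus strand). Control mice without ABX had 13, 19.6, 16.5, 15.4 and 17.5 CPM and anti-CD40 mice without ABX 32.3, 36.9, 38.3, 25.8 and 34.7 CPM. With ABX the control mice had 19.3, 48.6, 44.3, 60.3 and 34.9 CPM and the anti-CD40 mice 20, 13.3, 21.7, 13.6 and 18.8 CPM. Without ABX the groups did not overlap and every anti-CD40 mouse was higher, whereas with ABX 4 of 5 control mice were above every anti-CD40 mouse and mouse 1, at 19.3 CPM, was inside their range. The effect was 1.04 ± 0.22 without ABX and -1.24 ± 0.22 with ABX, a difference of -2.28 ± 0.31 (adjusted p = 0.00050, edgeR). ABX raised Per1 in control mice by 1.34 ± 0.22 (adjusted p = 0.00174, edgeR) and lowered it in anti-CD40 mice (-0.94 ± 0.22, adjusted p = 0.00586, edgeR). Bhlhe40, another clock repressor, rose without ABX (1.07 ± 0.18), had an effect of 0.16 ± 0.18 with ABX, and differed by -0.91 ± 0.26 (adjusted p = 0.0371, edgeR). The Bhlhe40 call was lost without any 1 of mice 2, 4, 5, 6, 7, 10, 11, 13, 14, 17 or 18, with differences from -1.06 to -0.80. These were the 2 called of 6 tested members of the clock and glucocorticoid list, whose median difference was -0.06. Of all genes 7.55% were called, 3.18% below 0. Fkbp5, a glucocorticoid target in the same list, had effects of 0.38 and 0.38.

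The 250 bases before the Per1 start are printed because Per1 is a direct target of clock factors that bind the E-box CACGTG, shown in capitals. They cover chr11:69098699-69098948 on the plus strand (mm10, sequence of RefSeq GRCm38.p6).
Per1: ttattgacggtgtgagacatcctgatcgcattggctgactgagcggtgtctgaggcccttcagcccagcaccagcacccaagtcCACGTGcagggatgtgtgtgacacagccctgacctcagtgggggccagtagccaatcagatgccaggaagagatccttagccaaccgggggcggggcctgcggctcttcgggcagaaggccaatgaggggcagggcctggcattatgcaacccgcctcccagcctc
The E-box, searched on both strands after the values were known, is present in 6.86% of the 27025 promoters of this length, in 9.96% of the 1636 promoters of tested genes, and in 3 of those of the 8 reversed genes. It is also in 4 of 28 promoters of enhanced rises, 6 of 46 of blunted falls, 3 of 36 of blunted rises and 1 of 13 of enhanced falls. A second Per1 start listed by RefSeq has none in its window.

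Rps6ka2, which encodes the growth-signal kinase RSK3, had the largest difference of the reversed genes at -2.87 ± 0.58 (adjusted p = 0.00482, edgeR), on low counts. Levels were 2.52, 2.59, 2.17, 2.82 and 2.70 CPM in control mice and 5.44, 11.5, 11.7, 1.86 and 2.84 CPM in anti-CD40 mice without ABX. With ABX they were 4.17, 3.43, 3.53, 3.54 and 3.32 CPM in control mice and 1.62, 1.87, 1.57, 0.462 and 0.926 CPM in anti-CD40 mice. Mice 17 and 18 carried the highest values and mice 19 and 20 of the same plate column the lowest of their group, so without ABX the groups overlapped, and with ABX every anti-CD40 mouse was below every control mouse. The effects were 1.38 ± 0.38 and -1.48 ± 0.44.

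Frat1, an inhibitor of glycogen synthase kinase 3 and so a positive factor in Wnt signalling, was reversed in the other direction. Control mice without ABX had 19.3, 18.6, 16, 18.4 and 18.9 CPM and anti-CD40 mice 12.2, 9.48, 10.7, 10.1 and 9.61 CPM, with no overlap. With ABX the control mice had 7.54, 12.8, 10.2, 13.3 and 12.7 CPM and the anti-CD40 mice 15.3, 15.3, 13.8, 19.3 and 13 CPM, where the lowest anti-CD40 value lay just inside the control range. The effects of -0.81 ± 0.14 and 0.44 ± 0.14 differed by 1.25 ± 0.20 (adjusted p = 0.000669, edgeR). ABX lowered Frat1 in control mice (-0.69 ± 0.14) and raised it in anti-CD40 mice (0.56 ± 0.14), both called.

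The other 5 reversed genes moved by less. Pbrm1, a subunit of the PBAF chromatin remodelling complex, went from -0.34 ± 0.09 to 0.21 ± 0.09 (difference 0.55 ± 0.12, adjusted p = 0.00962, edgeR). Igf2r, the receptor that sorts lysosomal enzymes and clears insulin-like growth factor 2, went from -0.39 ± 0.11 to 0.29 ± 0.12 (difference 0.68 ± 0.16). Wwtr1, the Hippo pathway coactivator TAZ, went from -0.43 ± 0.18 to 0.44 ± 0.18. Anapc7, a subunit of the anaphase-promoting complex, went from 0.33 ± 0.11 to -0.34 ± 0.11, and Serp1, which stabilises membrane proteins in the endoplasmic reticulum, from 0.22 ± 0.10 to -0.31 ± 0.10. For Wwtr1, Igf2r and Anapc7 all 4 pairs of groups that differ in anti-CD40 or ABX alone overlapped. The Wwtr1 difference (0.86 ± 0.25) lost its call without any 1 of mice 3, 5, 8, 9, 10, 11, 14, 18 or 20 (0.77 to 0.99), and that of Serp1 (-0.53 ± 0.14) without mouse 11 or 18 (-0.62 to -0.45).

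**Figure D2:**
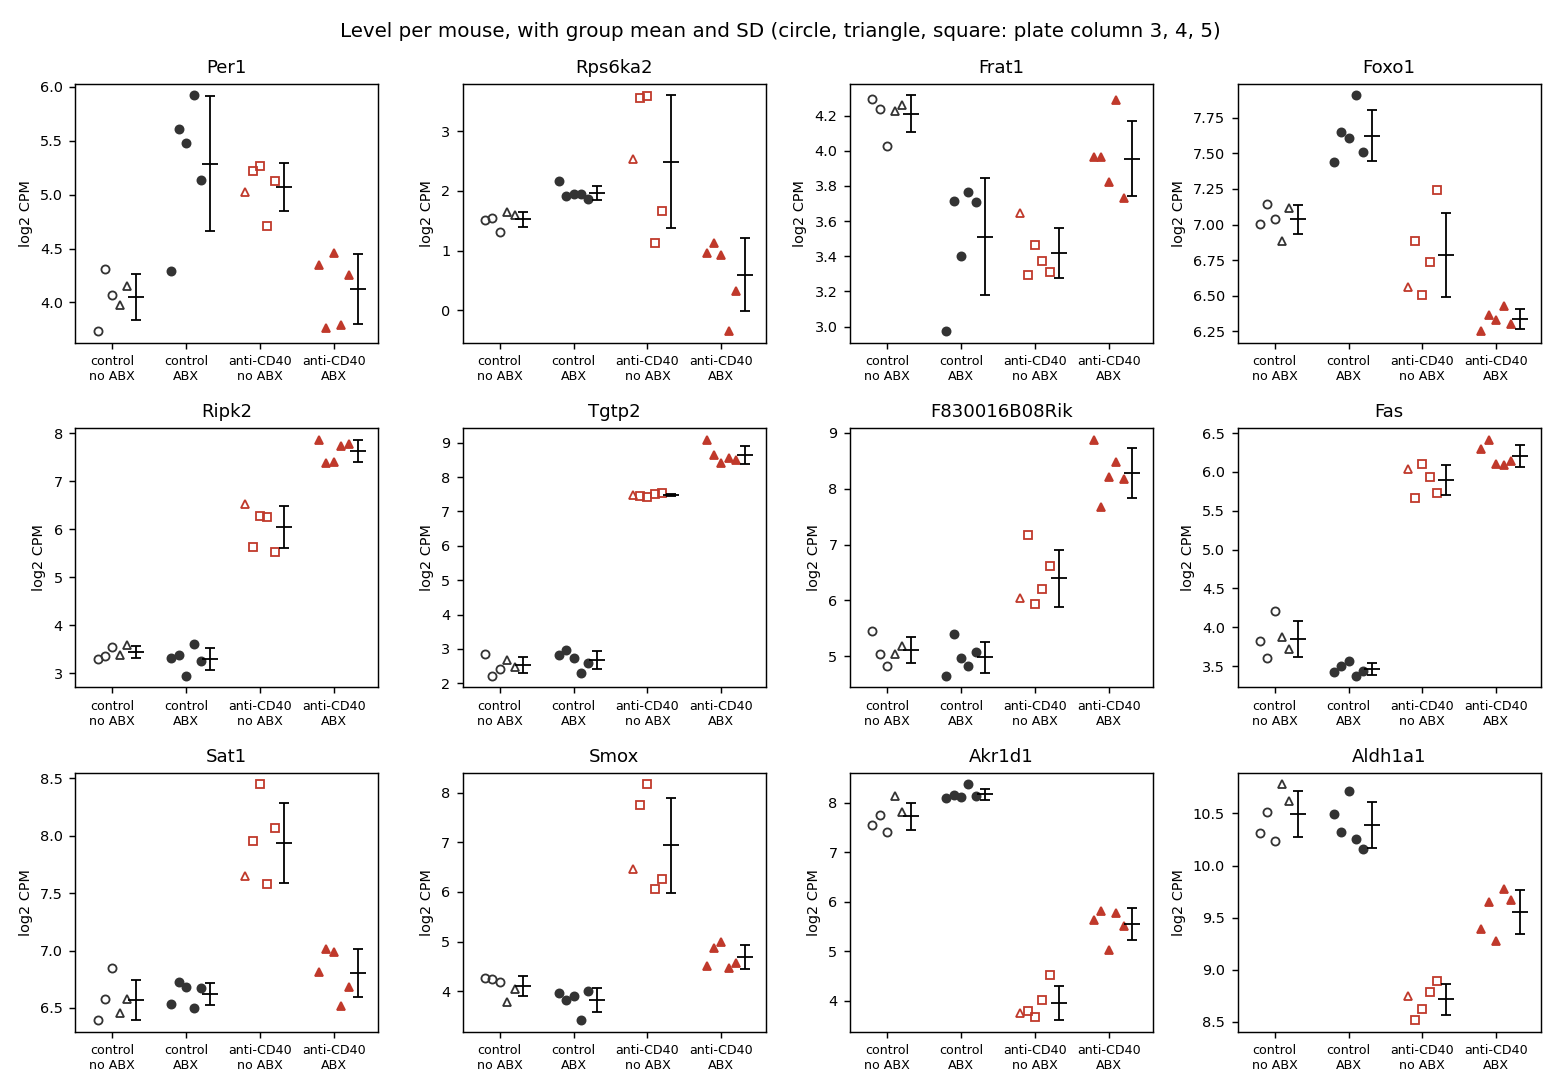
Level per mouse (y axis, log2 CPM) in the 4 groups (x axis) for 12 genes, with bars for the group mean and SD, and circles, triangles and squares for plate columns 3, 4 and 5. Ripk2 and Tgtp2 rise after anti-CD40 in both settings and further with ABX, Sat1 and Smox are higher in every anti-CD40 mouse without ABX than in any anti-CD40 mouse with it, and Per1 is high in control mice with ABX and in anti-CD40 mice without.

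Among the enhanced rises was Ripk2, the kinase that relays signals from the intracellular bacterial sensors NOD1 and NOD2 to NF-kB. It was measured over 314 bp at chr4:16163224-16163537 (mm10, minus strand). Levels without ABX were 9.50, 10, 11.3, 10.1 and 11.8 CPM in control mice and 92.4, 49.2, 76.7, 75.8 and 46.0 CPM in anti-CD40 mice. With ABX they were 9.63, 10.1, 7.44, 11.8 and 9.23 CPM in control mice and 232, 167, 168, 211 and 220.3 CPM in anti-CD40 mice. The control groups overlapped, whereas every anti-CD40 mouse with ABX was above every anti-CD40 mouse without, mouse 16 of the same plate column included. The rise of 2.69 ± 0.18 became 4.37 ± 0.18 with ABX, a difference of 1.68 ± 0.25 (adjusted p = 0.000669, edgeR). Ripk2 was the 1 called of 7 tested members of the microbial sensing list, whose median difference was -0.30. The sensor Nod1 rose by 1.38 without ABX and 1.99 with ABX, and its difference of 0.61 was not called (adjusted p = 0.0954, edgeR).

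Enhanced rises also included members of the immunity-related GTPase family, interferon-induced proteins that act on the vacuoles of intracellular microbes. Tgtp2 had 6.85, 4.36, 5.00, 6.09 and 5.22 CPM in control mice and 177, 175, 173, 182 and 185 CPM in anti-CD40 mice without ABX. With ABX it had 6.74, 7.59, 6.32, 4.60 and 5.72 CPM in control mice and 541, 401, 342, 379 and 361 CPM in anti-CD40 mice. All 5 anti-CD40 mice with ABX were above all 5 without, and the control groups overlapped. The rise of 5.00 ± 0.14 became 6.03 ± 0.14 (difference 1.02 ± 0.20, adjusted p = 0.00348, edgeR). Tgtp2 has a near-identical neighbour, Tgtp1, and how reads were split between them is uncertain: Tgtp1 rose by 5.66 and 6.35, and its difference of 0.69 was not called (adjusted p = 0.0978, edgeR). F830016B08Rik, listed by RefSeq also as Ifgga4, rose from 34.5 ± 5.70 to 88.3 ± 34.5 CPM without ABX and from 31.8 ± 6.46 to 323 ± 98.1 CPM with ABX (difference 1.99 ± 0.35, adjusted p = 0.00279, edgeR). Gm5431, listed also as Irgb9b8 and named here after its values were seen, rose by 2.17 ± 0.18 and 3.23 ± 0.18 (difference 1.06 ± 0.26, adjusted p = 0.017, edgeR). Both had every anti-CD40 mouse with ABX above every anti-CD40 mouse without.

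Of the 14 tested members of the interferon-induced list, 13 rose without ABX and 13 with ABX, against 31.8% and 26.6% of all genes. Only Tgtp2 of the 14 had a difference called by edgeR, and DESeq2 and limma voom each called 2. The list's median difference was 0.28. Irgm2, another GTPase of the immunity-related family, was not called (0.84, adjusted p = 0.0547, edgeR).

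Fas, Nfkbia and Cflar were the 3 called of 15 tested members of the CD40, NF-kB and tumour necrosis factor receptor list, against 7.55% of all genes. They did not move the same way. Fas, a death receptor, was enhanced. Its levels were 13.8, 11.8, 18.2, 14.4 and 12.8 CPM in control mice and 65.2, 50.4, 68.6, 61.1 and 52.5 CPM in anti-CD40 mice without ABX, and 10.4, 11, 11.5, 10.1 and 10.5 CPM in control mice and 78.2, 84.8, 68.2, 67.9 and 69.9 CPM in anti-CD40 mice with ABX. The control mice with ABX were all below those without, and the anti-CD40 groups overlapped. The rise of 2.07 ± 0.11 became 2.78 ± 0.12 (difference 0.72 ± 0.16, adjusted p = 0.00962, edgeR), with ABX effects of -0.41 ± 0.12 in control and 0.31 ± 0.10 in anti-CD40 mice.

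Nfkbia, the NF-kB inhibitor that NF-kB itself induces, was blunted through its control level. Control mice had 55.2, 50.6, 47.7, 50.5 and 49.2 CPM without ABX and 52.3, 115, 96.4, 113 and 96.9 CPM with ABX, where mouse 1 at 52.3 CPM was alone in the range of the mice without. Anti-CD40 mice had 332, 272, 336, 234.4 and 216 CPM without ABX and 290.0, 336, 268, 289 and 300.4 CPM with ABX, and these groups overlapped. The rise was 2.46 ± 0.16 without ABX and 1.65 ± 0.16 with it (difference -0.81 ± 0.22, adjusted p = 0.0322, edgeR). This call was lost without any 1 of mice 2, 3, 4, 5, 8, 9, 10, 11, 13, 14, 16 or 18, with differences from -0.96 to -0.72. Cflar, which encodes the caspase-8 inhibitor c-FLIP, rose by 1.02 ± 0.11 without ABX and 0.30 ± 0.11 with ABX (difference -0.73 ± 0.16, adjusted p = 0.00695, edgeR), and ABX raised it in control mice by 0.51 ± 0.11. Nfkb2, the precursor of the p52 subunit of non-canonical NF-kB, rose by 3.38 ± 0.21 and 4.02 ± 0.22, and its difference of 0.65 ± 0.31 was not called (adjusted p = 0.21, edgeR). The median difference of the list was 0.16.

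Promoters are printed for Tgtp2, of the interferon-induced list, and for Fas and Nfkbia, of the CD40 and NF-kB list, because their differences were called. They were picked from lists in which most members were not called, and do not stand for a class or a programme. Each is the 250 bases before the gene's start (RefSeq GRCm38.p6, mm10): chr11:49064213-49064462 on the minus strand, chr19:34290409-34290658 on the plus strand and chr12:55492648-55492897 on the minus strand.
Tgtp2: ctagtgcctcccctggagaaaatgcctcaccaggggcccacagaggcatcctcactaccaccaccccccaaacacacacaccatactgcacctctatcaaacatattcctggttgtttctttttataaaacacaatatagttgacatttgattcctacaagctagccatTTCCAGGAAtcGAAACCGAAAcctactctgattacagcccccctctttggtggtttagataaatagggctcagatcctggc
Fas: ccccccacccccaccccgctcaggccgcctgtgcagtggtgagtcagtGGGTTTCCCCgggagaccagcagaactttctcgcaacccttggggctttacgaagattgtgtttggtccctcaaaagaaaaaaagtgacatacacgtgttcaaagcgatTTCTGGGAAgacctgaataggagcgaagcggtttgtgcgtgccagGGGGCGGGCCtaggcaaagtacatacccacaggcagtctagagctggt
Nfkbia: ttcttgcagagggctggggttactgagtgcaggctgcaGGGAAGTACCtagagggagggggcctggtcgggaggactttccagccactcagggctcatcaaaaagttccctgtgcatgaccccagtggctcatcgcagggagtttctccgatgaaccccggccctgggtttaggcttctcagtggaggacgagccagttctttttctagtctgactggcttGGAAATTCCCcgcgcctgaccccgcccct
Capitals mark matches on either strand to the interferon response element (GAAA, any 2 bases, GAAA), the STAT element (TTC, any 3 bases, GAA) and the NF-kB core (GGG, any 5 bases, CC). In Tgtp2 the first capitals are the STAT element and the second the interferon element, 2 bases apart. In Fas the middle match is the STAT element and the outer ones the NF-kB core, and both matches in Nfkbia are the NF-kB core. No printed matches overlap. Of all 27025 promoters of this length, 3.46% hold the interferon element, 8.13% the STAT element and 48.65% the NF-kB core, and of the 1636 found for tested genes 3.67%, 8.74% and 68.58% do. Among the 35 enhanced rises, 28 had a promoter in the table, and 2 of these held the interferon element, 4 the STAT element and 22 the NF-kB core. Of the 36 promoters found for the 46 blunted rises, 1 held the interferon element, 5 the STAT element and 22 the NF-kB core.

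Among other enhanced rises, Hivep1, a zinc-finger protein that binds NF-kB-like motifs, rose by 0.36 ± 0.12 without ABX and 1.37 ± 0.13 with ABX (difference 1.01 ± 0.18, adjusted p = 0.00155, edgeR). It is one of 7 genes, with Foxo1, Gpr146, Coq8b, Nostrin, Chd9 and Ptprd, named after the values were seen because they were among the 12 smallest p-values. Keap1, the sensor that holds the antioxidant factor NRF2 in check, rose by 0.51 ± 0.10 and 1.06 ± 0.10 (difference 0.55 ± 0.14) and was the 1 called of 16 tested members of the stress list (median -0.06). Kcna2, a voltage-gated potassium channel, had an effect of 0.19 ± 0.21 without ABX and rose by 1.69 ± 0.23 with ABX (difference 1.5 ± 0.31, adjusted p = 0.00525, edgeR). Here the control side moved: all control mice with ABX (6.42, 7.23, 5.95, 6.01 and 7.38 CPM) were below all control mice without (10.9, 10.3, 23, 11.9 and 13.8 CPM). Zbed3, a zinc-finger partner of axin, differed by 1.26 ± 0.31, with an effect of -0.44 ± 0.22 without ABX and 0.82 ± 0.22 with it.

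Ston2, an endocytic adaptor, differed by 1.06 ± 0.31, a call lost without any 1 of mice 3, 4, 5, 6, 8, 10, 13, 14, 15, 16 or 18 (0.95 to 1.26). Lrmda, a leucine-rich repeat protein of melanocyte differentiation, had 9 counts over the control mice without ABX and 83 over the anti-CD40 mice, but 1 count over the control mice with ABX against 113. With ABX the ratio was 132, with an exact 95% interval for counting error alone of 23.2 to 5265. Its fitted difference of 2.95 ± 0.89 thus rests on 1 control count and depends on the prior count, and the call was lost without any 1 of mice 2, 3, 4, 5, 7, 8, 9, 10, 11, 13, 14, 15, 16, 17, 18 or 20 (2.75 to 4.42).

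The blunted rises held 2 enzymes of polyamine breakdown. Sat1, the acetyltransferase that starts the export and breakdown of spermidine and spermine, had 83.8, 95.5, 115, 87.6 and 95 CPM in control mice and 200.1, 248, 348, 191 and 268 CPM in anti-CD40 mice without ABX. With ABX it had 92.6, 105, 102, 90.3 and 101 CPM in control mice and 112, 129, 126, 91.0 and 102 CPM in anti-CD40 mice. Every anti-CD40 mouse without ABX was above all other mice, and the groups with ABX overlapped. The rise of 1.40 ± 0.13 was 0.19 ± 0.13 with ABX (difference -1.21 ± 0.19, adjusted p = 0.000669, edgeR).

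Smox, spermine oxidase, had 18.9, 18.7, 18, 13.5 and 16.3 CPM in control mice and 87.3, 214, 286, 66.3 and 76.1 CPM in anti-CD40 mice without ABX, with mice 17 and 18 far above the other 3. With ABX it had 15.4, 13.9, 14.7, 10.4 and 15.9 CPM in control mice and 22.5, 29.1, 31.7, 21.9 and 23.5 CPM in anti-CD40 mice. All anti-CD40 mice without ABX were above all with ABX, which in turn were above all controls with ABX. The effect went from 3.09 ± 0.36 to 0.87 ± 0.37 (difference -2.22 ± 0.51, adjusted p = 0.0153, edgeR), from -2.39 to -1.82 when single mice were left out. The difference was not called by limma voom, and with plate column as a term, where mouse 16 alone stands for its group, it was -1.36. Sat1 and Smox were the 2 called of 13 tested genes in the urea cycle and amino acid list (median 0.12), against 7.55% of all genes. Cps1, the entry enzyme of the urea cycle, fell (effects of -2.30 ± 0.11 and -1.85 ± 0.11), and its difference of 0.46 ± 0.15 missed the threshold (adjusted p = 0.0554, edgeR), but passed it without any 1 of mice 2, 8, 12 or 20, with library totals and by DESeq2.

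Coq8b, an atypical kinase needed for coenzyme Q synthesis, rose from 18.3 ± 2.73 to 90.3 ± 11.8 CPM without ABX and from 16.9 ± 2.56 to 36.3 ± 7.53 CPM with ABX. The rises of 2.31 ± 0.14 and 1.10 ± 0.14 differed by -1.20 ± 0.20 (adjusted p = 0.000817, edgeR). Nostrin, which controls the traffic of endothelial nitric oxide synthase, rose by 1.23 ± 0.11 and 0.35 ± 0.10 (difference -0.88 ± 0.15). Rgs1, a brake on chemokine receptor signalling in immune cells, and Egln3, a prolyl hydroxylase of hypoxia-inducible factor, were both named after their values were seen. Rgs1 rose by 5.16 ± 0.25 and 3.57 ± 0.23 (difference -1.59 ± 0.36, adjusted p = 0.0127, edgeR), a call not made by limma voom. Egln3 rose by 1.16 ± 0.23 without ABX, had an effect of -0.33 ± 0.23 with it, and differed by -1.49 ± 0.32 (adjusted p = 0.0114, edgeR). Egln3 was at 63.2, 129, 138, 52.3 and 108 CPM in anti-CD40 mice without ABX, with mice 17, 18 and 20 the high ones, and the groups overlapped. With plate column as a term its difference was -0.71.

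Blunted rises of low level included Prr33, a locus annotated as a lincRNA, with 4 counts over the control mice without ABX, 22 over those with ABX, 108 over the anti-CD40 mice without and 68 over those with ABX. Its rises were 4.51 ± 0.50 and 1.48 ± 0.39 (difference -3.03 ± 0.70, adjusted p = 0.0122, edgeR). Atl1, a GTPase that shapes the endoplasmic reticulum, rose by 2.05 ± 0.42 without ABX, had an effect of -0.31 ± 0.40 with ABX, and differed by -2.36 ± 0.58. The unnamed loci Gm13410, Gm37978 and Gm13212 differed by -2.39 ± 0.69, -2.02 ± 0.56 and -1.87 ± 0.55. Their calls were lost without any 1 of mice 2, 4, 6, 9, 10, 11, 14, 15 or 18 for Gm13410, mice 4, 5, 9, 13 or 19 for Gm37978 and mice 2, 3, 4, 5, 6, 8, 9, 10, 13, 14, 15, 18 or 19 for Gm13212. With plate column as a term the Gm13410 difference was -1.04.

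Foxo1, a transcription factor that drives gluconeogenic genes when insulin is low, was an enhanced fall and shared with Per1 the smallest adjusted p. Levels were 127.99, 141, 131, 118 and 138 CPM in control mice and 94.0, 118, 90.5, 106 and 151 CPM in anti-CD40 mice without ABX. With ABX they were 173, 201, 194, 239.7 and 182 CPM in control mice and 75.9, 82.1, 80.1, 85.9 and 78.7 CPM in anti-CD40 mice. All control mice with ABX were above all mice of the other groups, all anti-CD40 mice with ABX were below all mice of the other groups, and the 2 groups without ABX overlapped. The effect of -0.23 ± 0.11 without ABX was not called (adjusted p = 0.0775, edgeR), the fall with ABX was -1.30 ± 0.11, and the difference was -1.07 ± 0.16 (adjusted p = 0.00050, edgeR).

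Adamtsl2, a secreted glycoprotein of the extracellular matrix, fell, with effects of -1.38 ± 0.29 without ABX and -3.36 ± 0.35 with ABX. Control mice had 12.3, 5.98, 16.3, 8.91 and 7.92 CPM without ABX and 9.95, 10.1, 13, 9.72 and 11.8 CPM with ABX, and anti-CD40 mice 3.30, 3.97, 6.60, 1.24 and 4.73 and 1.26, 1.36, 1.26, 0.770 and 0.617 CPM. With ABX the groups were apart, and the difference was -1.99 ± 0.47 (adjusted p = 0.0133, edgeR), though not called by limma voom. It was the 1 called of 25 tested matrix and stellate cell genes, whose median difference was -0.70 against -0.01 over all genes. In that list 7 genes rose and 7 fell without ABX, and 4 rose and 14 fell with ABX. Of all genes 31.8% rose and 28.8% fell without ABX, and 26.6% rose and 24.9% fell with ABX. Col3a1, a fibrillar collagen chain, had effects of -1.03 and -2.29 and Lamb1, a laminin chain, -0.73 and -2.19, and neither difference was called. The summed level of the 25 genes was 331 to 723 CPM in anti-CD40 mice without ABX and 244 to 496 CPM with ABX, and 459 to 744 and 409 to 614 CPM in the respective controls. The part of that sum in the Adamtsl2 difference was not tested.

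Afp, the fetal relative of albumin, fell (effects of -1.66 ± 0.32 and -3.19 ± 0.34; difference -1.54 ± 0.46, adjusted p = 0.0486, edgeR). Control mice with ABX reached 94.5, 153, 149, 234.02 and 197 CPM against 103, 118, 40.5, 68.5 and 84.7 CPM without. The call was lost without any 1 of mice 2, 3, 4, 5, 6, 8, 9, 10, 11, 12, 13, 14, 17, 18, 19 or 20 (-1.69 to -1.30), and also with library totals, by limma voom and with the mitochondrial genome left out. With plate column as a term the difference was -0.70. Ube2h, a ubiquitin-conjugating enzyme, had an effect of -0.13 ± 0.15 without ABX and fell with ABX (-1.08 ± 0.15; difference -0.95 ± 0.21, adjusted p = 0.00974, edgeR). mt-Nd1, a complex I subunit encoded by mitochondrial DNA, fell (effects of -0.52 ± 0.12 and -1.14 ± 0.12; difference -0.61 ± 0.17), a call lost without any 1 of mice 4, 5, 10, 13, 14, 15, 18 or 19. It was the 1 called of 11 mitochondrial genome genes, whose median difference was -0.26. The mitochondrial share of counts was lower after anti-CD40, with means of 28.5% in controls and 24.7% in anti-CD40 mice without ABX and 32.1% and 23.3% with ABX, and its part in that difference was not tested. Among the controls without ABX, mouse 8 had a share of 22.4% and the others 28.9% to 31.1%.

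Further enhanced falls were Gabbr2, a subunit of the GABA-B receptor (-1.22 ± 0.37), Ttc6 (-1.72 ± 0.53) and the loci AC121973.1 (-1.67 ± 0.38) and Gm16157 (-1.13 ± 0.35). AC121973.1 fell (effects of -1.03 ± 0.25 and -2.70 ± 0.29), with every anti-CD40 mouse with ABX below every one without. The calls were lost without any 1 of mice 2, 4, 5, 6, 7, 9, 10, 12, 13, 14, 16, 18 or 20 for Gabbr2, mice 1, 2, 3, 4, 5, 6, 7, 8, 9, 10, 11, 12, 13, 14, 15, 16, 17, 19 or 20 for Ttc6 and mice 1, 2, 3, 4, 5, 6, 7, 8, 9, 10, 11, 12, 13, 14, 16, 18 or 20 for Gm16157. With plate column as a term the Gm16157 difference was -1.74.

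Blunted falls formed the largest class and included enzymes of hepatocyte metabolism. Akr1d1, which reduces sterol intermediates on the way to bile acids, had 188, 214, 169, 279 and 224 CPM in control mice and 13.2, 13.6, 12.5, 15.9 and 22.7 CPM in anti-CD40 mice without ABX. With ABX it had 274, 283, 277, 329.6 and 279.5 CPM in control mice and 49.2, 55.9, 32.2, 54.5 and 45.4 CPM in anti-CD40 mice. All anti-CD40 mice with ABX were above all anti-CD40 mice without, and both anti-CD40 groups were below both control groups. The falls of -3.78 ± 0.17 and -2.60 ± 0.16 differed by 1.18 ± 0.22 (adjusted p = 0.00376, edgeR). It was the 1 called of 7 tested bile acid genes (median 0.07).

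Aldh1a1, a retinaldehyde dehydrogenase, had 1272, 1463, 1203, 1756 and 1578 CPM in control mice and 430.1, 366, 395, 443 and 475 CPM in anti-CD40 mice without ABX. With ABX it had 1439, 1276, 1682, 1218 and 1140.3 CPM in control mice and 670.3, 802, 618, 876 and 813 CPM in anti-CD40 mice. Again the anti-CD40 groups were apart and the control groups overlapped. The falls of -1.79 ± 0.12 and -0.84 ± 0.12 differed by 0.95 ± 0.17 (adjusted p = 0.00195, edgeR). Aldh3a2, the fatty aldehyde dehydrogenase, fell (effects of -3.06 ± 0.18 and -2.23 ± 0.17; difference 0.82 ± 0.23), a call lost without any 1 of mice 2, 4, 5, 6, 7, 9, 10, 11, 14, 15, 17, 18 or 19, and the difference was 0.45 with plate column as a term. Aox1, aldehyde oxidase, was an enhanced rise instead, with effects of -0.31 ± 0.16 and 0.73 ± 0.16 (difference 1.04 ± 0.22, adjusted p = 0.00749, edgeR). These 4 genes, Akr1d1 included, were the called ones of 23 tested detoxification enzymes and transporters (median 0.14). All 4 differed upward, and of all genes 7.55% were called, 4.36% above 0.

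The cytochrome P450 response to anti-CD40 passed the test for an ABX difference in 1 of 21 members, although 17 fell without ABX and 16 with ABX. Of all genes 7.55% passed it, while 28.8% fell without ABX and 24.9% with ABX. An unadjusted p under 0.05 (edgeR) was found for 9 of the 21, against 527 of all 2200 genes. With library totals 2 of the 21 were called, by DESeq2 1 and by limma voom 0. Cyp3a59, a drug-oxidising P450, fell (effects of -2.66 ± 0.16 and -1.80 ± 0.16; difference 0.86 ± 0.23, adjusted p = 0.0249, edgeR), a call lost without mouse 14. ABX had lowered its control level (-0.84 ± 0.15). Cyp2c50 fell (effects of -3.64 ± 0.12 and -3.66 ± 0.11), a difference of -0.02 ± 0.15 with a 95% interval of -0.33 to 0.29. Cyp2c29 fell (effects of -4.31 ± 0.22 and -3.62 ± 0.21; difference 0.69 ± 0.27, interval 0.12 to 1.27, adjusted p = 0.125, edgeR), and this was called without mouse 16. The Cyp2c29 difference was 0.39 without mice 14, 15, 19 and 20, and -0.07 with plate column as a term. Cyp3a11, whose control level fell with ABX (-2.17 ± 0.24), fell after anti-CD40 (effects of -2.38 ± 0.24 and -1.79 ± 0.24; difference 0.59 ± 0.32, interval -0.09 to 1.27, adjusted p = 0.285, edgeR), and the difference was 0.20 with plate column as a term. The median difference of the list was 0.21.

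Tbx3, a T-box transcription factor of hepatocyte fate, was blunted through its control level. Control mice had 68.5, 104, 116, 65.0 and 83.1 CPM without ABX and 13.3, 17.7, 45.2, 27.2 and 38.4 CPM with ABX, a fall with no overlap (-1.63 ± 0.28, adjusted p = 0.00229, edgeR). Anti-CD40 mice had 19.6, 18.1, 18.6, 22.4 and 33.4 CPM without ABX and 15.7, 15.8, 18.5, 24.5 and 20.4 CPM with ABX. The effects of -1.96 ± 0.28 and -0.57 ± 0.29 differed by 1.39 ± 0.40 (adjusted p = 0.0417, edgeR), a call lost without any 1 of mice 2, 4, 7, 8, 10, 13, 14, 15, 16, 17, 18 or 19 (1.21 to 1.63). Tbx3 and Afp, with differences of opposite sign, were the 2 called of 8 tested hepatocyte identity genes (median 0.04), against 7.55% of all genes. Alb fell (effects of -1.39 ± 0.13 and -1.34 ± 0.13), a difference of 0.05 ± 0.18 with a 95% interval of -0.33 to 0.42.

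Among transport genes, 7 of 51 tested solute carriers had a called difference, 6 above 0 and 1 below (7.55% of all genes, 4.36% above and 3.18% below), with a list median of -0.04. Slc16a12, a monocarboxylate transporter family member that carries creatine, had 24.6, 19.4, 29.7, 22.6 and 21.2 CPM in control mice and 6.10, 6.15, 6.76, 9.90 and 7.72 CPM in anti-CD40 mice without ABX, with no overlap. With ABX it had 17, 26.6, 17.5, 21.7 and 11.3 and 15.9, 16, 12.3, 19.3 and 13.7 CPM, which overlapped. The fall of -1.68 ± 0.19 was -0.29 ± 0.18 with ABX (difference 1.39 ± 0.26, adjusted p = 0.00279, edgeR). Slc12a7, a potassium-chloride cotransporter, went from -0.91 ± 0.10 to -0.17 ± 0.10 (difference 0.74 ± 0.14). Slc6a6, the taurine transporter, had an effect of -0.28 ± 0.14 without ABX and rose by 0.68 ± 0.14 with ABX (difference 0.95 ± 0.20). Slc35e3, of a nucleotide-sugar transporter family, had an effect of 0.06 ± 0.12 and rose by 1.02 ± 0.13 (difference 0.96 ± 0.18), and here ABX lowered the control level (-0.83 ± 0.13).

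Gpr146, an orphan receptor linked to plasma cholesterol, was a blunted fall measured over 67.8% of its exon length. It had 698, 523, 623, 645 and 645 CPM in control mice and 289.9, 257, 225, 242 and 266 CPM in anti-CD40 mice without ABX, and 583, 439.6, 422, 441 and 476 CPM in control mice and 329, 340.5, 331, 356 and 339 CPM in anti-CD40 mice with ABX. Anti-CD40 mice were below controls in both settings, and those with ABX were all above those without. The falls of -1.29 ± 0.09 and -0.48 ± 0.09 differed by 0.81 ± 0.13 (adjusted p = 0.000669, edgeR). Ptprd, a receptor tyrosine phosphatase, fell (effects of -1.54 ± 0.10 and -0.77 ± 0.10; difference 0.77 ± 0.14), and Chd9, a chromatin remodeller, went from -0.74 ± 0.13 to 0.29 ± 0.13 (difference 1.03 ± 0.18). Fam126b, a partner of a phosphatidylinositol kinase complex, and the locus 9130409I23Rik, annotated as protein-coding, differed by 1.05 ± 0.30 and 1.58 ± 0.42. Their calls were lost without any 1 of mice 4, 9, 10, 13, 14, 16 or 18 and of mice 3, 5, 10, 14, 15 or 18, respectively. The 9130409I23Rik difference was 0.72 with plate column as a term.

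Energy and protein turnover genes split. Of 21 nuclear genes for mitochondrial energy proteins (median -0.03), Aco1, the aconitase that doubles as an iron sensor, went from -1.14 ± 0.08 to -0.61 ± 0.08 (difference 0.54 ± 0.11, adjusted p = 0.00695, edgeR). Suclg2, a succinyl-CoA ligase subunit, went from -0.90 ± 0.09 to -0.45 ± 0.09 (difference 0.45 ± 0.12, lost without mouse 14 or 18). Mrpl21, a mitochondrial ribosomal protein, was a blunted rise (difference -0.54 ± 0.15), lost without any 1 of mice 3, 4, 6, 9, 11, 13, 14 or 18. Pfkm, a phosphofructokinase, was the 1 called of 17 glucose and glycogen genes (median -0.08): it fell (effects of -1.21 ± 0.12 and -0.61 ± 0.12), and the difference of 0.60 ± 0.17 was lost without any 1 of mice 3, 4, 5, 6, 7, 10, 12, 13, 15, 17 or 18 and was 0.39 with plate column as a term.

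Of 54 tested proteasome and ubiquitin genes, 8 had a called difference, 5 above 0 and 3 below, against 7.55% of all genes, 4.36% above and 3.18% below (list median 0.08). Ubr4, Ubr3 and Ubr2 encode ubiquitin ligases of the UBR family, and all 3 differed upward. Ubr4 had an effect of -0.16 ± 0.08 without ABX and rose by 0.40 ± 0.08 with ABX (difference 0.56 ± 0.12, adjusted p = 0.00525, edgeR). Ubr3 fell (effects of -1.03 ± 0.12 and -0.41 ± 0.12). Ubr2 fell without ABX (-1.02 ± 0.22) and had an effect of 0.02 ± 0.22 with it, not called. The Ubr3 difference (0.62 ± 0.17) was lost without any 1 of mice 4, 6, 10, 11, 14 or 18, and the Ubr2 difference (1.04 ± 0.31) without any 1 of mice 1, 3, 4, 5, 6, 9, 10, 11, 13, 14, 16, 18 or 19. With the wider attribution of intervals to genes, which takes the gene with at least 90% of an interval's exon overlap, the Ubr3 difference was 0.36 and not called. Cul2, a scaffold of ubiquitin ligases, had effects of -0.99 ± 0.13 without ABX, a called fall, and -0.25 ± 0.13 with it, not called (difference 0.74 ± 0.19).

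**Figure D3:**
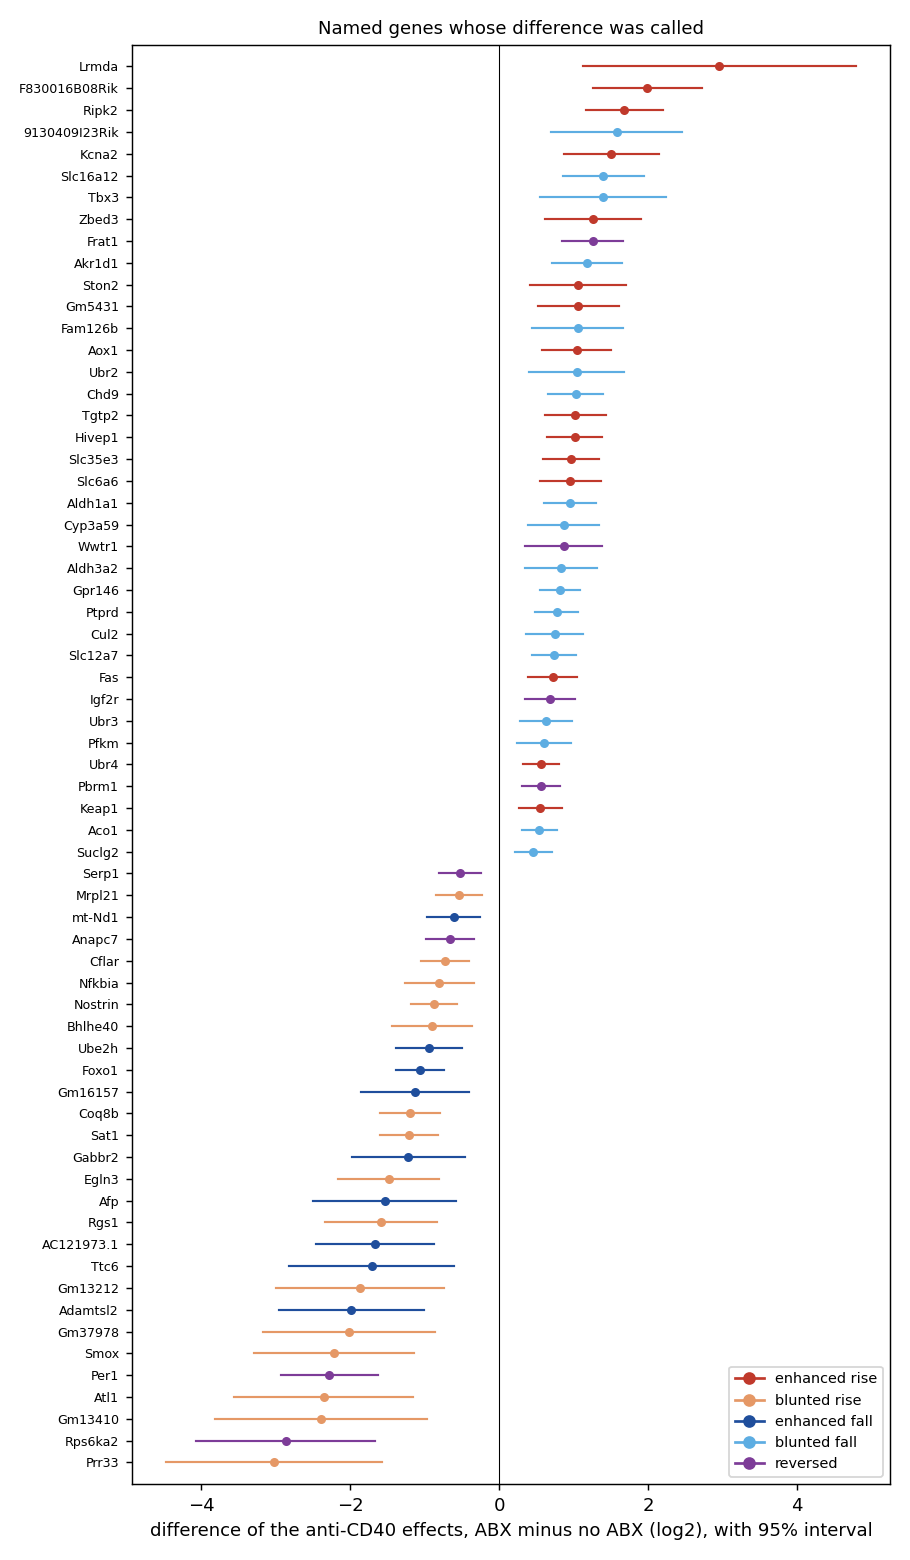
Difference of the anti-CD40 effects, ABX minus no ABX (x axis, log2, point with 95% interval), for the 65 named genes with a called difference (y axis), coloured by class. Values run from -3.03 for Prr33 to 2.95 for Lrmda, and the intervals of genes with few counts are the widest.

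In 13 lists with tested members edgeR called no difference, against 7.55% of all genes called. At that share a list this small can hold 0 calls without standing apart from the other genes. Summed over the 13 lists, 27 of 116 members had an unadjusted p under 0.05 (edgeR), and 527 of all 2200 genes did. A gene in 2 lists is counted in each. Antigen presentation had 0 of 4 members called and none at an unadjusted p under 0.05, and the 10 Kupffer cell and macrophage markers likewise had 0 and 0, with 0 called in either list by DESeq2. Chemokines, cytokines and their receptors had 0 of 16 (2 at an unadjusted p under 0.05, and 1 call by DESeq2), acute phase proteins 0 of 15 (2, and 0 by DESeq2), and cell cycle genes 0 of 17 (4, and 0). In anti-CD40 mice ABX lowered 5 of the 16 chemokine and cytokine genes and raised 0, against 7.23% and 8.68% of all genes. Fatty acid genes had 0 of 17 (6, and 0 by DESeq2), ribosome and translation genes 0 of 13 (5, and 1), and endothelial markers 0 of 7 (1, and 0). T, NK and B cell markers had 0 of 6 (3, and 0), noncoding RNA genes 0 of 4 (2, and 1), complement 0 of 3 (1, and 1), adipose, pancreas, muscle and red cell markers 0 of 2 (1, and 1), and cholangiocyte markers 0 of 2 (0, and 0). Limma voom called none of these genes, and library totals in place of TMM called 2 fatty acid genes, 1 T, NK and B cell marker and 0 in the other 11 lists. Median differences, against -0.01 over all genes, were -0.38 for chemokines and cytokines, -0.34 for endothelial markers and -0.29 for ribosome genes. Acute phase proteins had -0.15, cholangiocyte markers -0.06, Kupffer cell markers -0.04, antigen presentation 0.01, complement 0.11 and fatty acid genes 0.20. Cell cycle genes had 0.24, T, NK and B cell markers 0.43, noncoding RNA genes 0.53 and adipose, pancreas, muscle and red cell markers 1.68. Cfd, which encodes complement factor D, a product of fat tissue, and is in 2 of the lists, had a large but loosely measured difference of 3.68 ± 1.35 (adjusted p = 0.103, edgeR). No member of the neutrophil and monocyte or the cholesterol synthesis list was measured.

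Several strong anti-CD40 responses had differences that were not called. H2-Aa, a class II antigen presentation chain, rose by 2.68 ± 0.19 and 2.64 ± 0.19, a difference of -0.04 ± 0.25 with a 95% interval of -0.57 to 0.49. Cp, the copper carrier ceruloplasmin, rose by 2.31 ± 0.14 and 2.07 ± 0.14 (difference -0.24 ± 0.18, interval -0.62 to 0.14, adjusted p = 0.447, edgeR), and without mouse 8 the difference was -0.43 and called, while with plate column as a term it was 0.10. Stab2, a scavenger receptor of sinusoidal endothelium, fell (effects of -3.36 ± 0.31 and -3.83 ± 0.33; difference -0.47 ± 0.46, interval -1.45 to 0.50, adjusted p = 0.579, edgeR), and its 146 counts without ABX and 104 with ABX were few. A call that was not made does not show that the effects were equal, as these intervals show.

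Cell type markers were summed in each mouse to stand beside the differences. The 10 Kupffer cell and macrophage markers summed to 622 to 1474 CPM in anti-CD40 mice without ABX and 608 to 1257 CPM with ABX, which overlap. In the respective controls they summed to 777 to 1056 and 673 to 848 CPM. The 7 endothelial markers summed to 37.2 to 129 and 23.8 to 102 CPM in anti-CD40 mice without and with ABX, and the 6 T, NK and B cell markers to 189 to 223 and 198 to 229 CPM. The endothelial sums were 213 to 255 and 209 to 307 CPM in the respective controls. The T, NK and B cell sums were 227 to 241 CPM in controls without ABX and 194 to 223 CPM with ABX, which do not overlap. Without ABX this sum was lower in every anti-CD40 mouse than in every control mouse, and with ABX the groups overlapped. The 2 cholangiocyte markers summed to 14.3 to 27.7 CPM in anti-CD40 mice without ABX and 9.37 to 10.2 CPM with ABX, which do not overlap, and to 4.55 to 7.33 and 2.23 to 5.90 CPM in the respective controls. Neither had a called difference, and their part in the results was not tested. The 8 hepatocyte genes summed to 45817 to 71654 CPM in anti-CD40 mice without ABX and 70568 to 97968 CPM with ABX, and to 151143 to 175920 and 167236 to 261976 CPM in the respective controls. Alb is 1 of the 8 and makes up most of this sum, so the sum says little about the other members. The difference of Alb itself was 0.05 and not called. The part of the hepatocyte sum in the blunted falls was not tested.

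The class of a gene says how its 2 anti-CD40 effects compare, and the ABX effect on each side shows which groups moved. ABX itself changed 147 of the 2200 genes in control mice (6.68%, with 3.45% up and 3.23% down) and 350 in anti-CD40 mice (15.9%, with 8.68% up and 7.23% down). Of the 166 genes, 101 had a called ABX effect in anti-CD40 mice only, 33 in control mice only, 8 in both and 24 in neither. These 2 ABX effects and the difference are made from the same libraries, so the counts describe the difference and do not support it. Ripk2, Tgtp2, Akr1d1, Aldh1a1, Sat1 and Smox moved in anti-CD40 mice (for Ripk2, 1.56 ± 0.15 there and -0.12 ± 0.20 in control mice). Tbx3, Kcna2, Slc35e3, Cflar, Nfkbia and Cyp3a59 moved in control mice (for Nfkbia, 0.90 ± 0.16 there and 0.09 ± 0.15 in anti-CD40 mice). Per1, Frat1, Foxo1, Fas, Gpr146, Chd9 and Ube2h moved in both, in opposite directions, as did Ogt, the O-GlcNAc transferase, which is named after its values were seen (0.36 ± 0.11 and -0.33 ± 0.11).

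**Figure D4:**
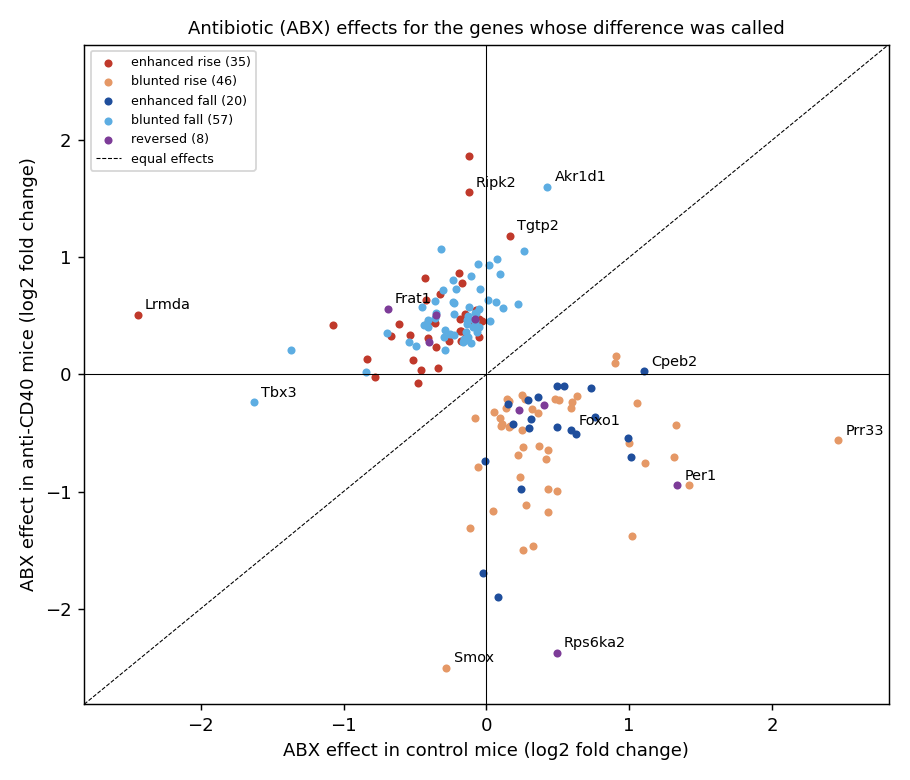
ABX effect in control mice (x axis, log2 fold change) against the ABX effect in anti-CD40 mice (y axis, log2 fold change) for the 166 genes with a called difference, coloured by class, with the dashed line marking equal effects. Points near the vertical line through 0, such as Ripk2 and Smox, moved with ABX after anti-CD40, points near the horizontal line, such as Tbx3 and Cpeb2, moved in controls, and Per1 and Frat1 lie where the effects have opposite signs.

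The groups are confounded in part with plate column, which was read from the well name of each library. The labels do not say at which step these wells were used. Control mice with ABX all lay in plate column 3, anti-CD40 mice with ABX all in column 4, control mice without ABX in columns 3 and 4, and anti-CD40 mice without ABX in columns 4 and 5, with mouse 16 alone in column 4. With plate column as a term, the difference therefore rests on mice 6 to 8 and mouse 16 for the groups without ABX, edgeR called 0 genes with 282 at an unadjusted p under 0.05, and the smallest adjusted p was 0.139. All 166 differences kept their sign in that fit, 139 were within 1.5 times of their value, and the median SE of the 166 rose from 0.18 to 0.27. These genes were selected by the fit without the term, and both fits use the same libraries, so the kept signs do not support the calls. Plate position and group cannot be told apart further with these libraries. Column 4 holds 1 anti-CD40 mouse without ABX, so values within it were not tested. Within column 4, Per1 was at 32.3 CPM in mouse 16 and at 13.3 to 21.7 CPM in the anti-CD40 mice with ABX, and within column 3 it was at 13 to 19.6 CPM in control mice 6 to 8 and at 19.3 to 60.3 CPM in those with ABX. Ripk2 was at 92.4 CPM in mouse 16 against 167 to 232 CPM in the same column with ABX, and Tgtp2 at 177 against 342 to 541 CPM. Of genes whose difference shrank with the plate term, Egln3 was at 63.2 CPM in mouse 16 against 41.8 to 53.6 CPM, and 9130409I23Rik was higher in mouse 16 than in every anti-CD40 mouse with ABX. Leaving out single mice gave 88 to 194 calls, with mice 14 (88), 18 (94), 10 (104), 4 (109) and 5 (110) each lowering the count by over 1.5 times, and 83 of the 166 genes were called in all 20 such fits. Of the 65 named genes with a call, 9 lost it with library totals (Gm13410, Gm13212, Ttc6, Afp, Gabbr2, Gm16157, Nfkbia, Mrpl21 and Bhlhe40). Limma voom did not call 15 of them, which were Ston2, Gm13410, Smox, Gm37978, Adamtsl2, Ttc6, Afp, Gabbr2, Gm16157, Ubr2, Wwtr1, Nfkbia, Cyp3a59, Aldh3a2 and Rgs1.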

How the data were processed

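Liver RNA of 20 mice was analysed. The authors deposited raw read counts per feature, made with featureCounts 1.5.0-p2, and per the file headers the annotation was a human one. The submitters' processing notes also name Trimmomatic 0.38, HISAT2 2.1.0 and mm10. Row names were therefore ignored, the intervals were read as mm10, and 99.5% of counts lay over mouse exons (GENCODE M21). Counts of intervals that overlapped the exons of exactly 1 mouse gene by at least 50 bp were summed with bedtools 2.31.1: 7463 of 58395 features, 5552 genes and 46.4% of counts, while 52.3% lay over several genes. Expression filtering with edgeR 4.0.16 (R 4.3.3) left 2200 genes, of which 2025 were protein-coding.

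Differences were tested by the quasi-likelihood test with TMM scaling, 4 group means and all 20 libraries. Replicates were taken to be separate mice because each label carries its own number. DESeq2 1.42.0, limma 3.58.1 and the settings of the closing section were alternatives. The members and all 32 gene lists were chosen with earlier results of these data known. Genes were named by rule at a mean of at least 1 CPM: the 6 largest differences of each class, up to 10 reversed genes, up to 4 called genes per list and a set of fixed genes, to which the 12 smallest p-values were added. In counts simulated for 2166 of the genes, 22%, 58%, 74% and 88% of differences of 0.5, 1, 1.5 and 2 (log2) were recovered. Sequencing depth and the short measured stretches limit genes of few counts most.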

Additional observations from a re-analysis of the deposited data

Results flagged for a closer look

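In 22 of the 296 sets of 5 mice examined for the 74 named genes, 1 mouse lay further from the others than Dixon's criterion allows, where chance alone would give about 1 set in 20. The values are log2 CPM. In control mice without ABX, mouse 6 stood apart for Lrmda at -1.11 (lowest), and mouse 8 stood apart for Aox1 at 4.44 (lowest), Cp at 10.68 (highest), Frat1 at 4.03 (lowest), Ptprd at 7.65 (lowest), Stab2 at 5.82 (highest) and mt-Nd1 at 9.55 (lowest), and mouse 9 stood apart for Atl1 at -1.08 (lowest). In control mice with ABX, mouse 1 stood apart for Cp at 9.89 (lowest), Lrmda at -1.05 (highest), Nfkbia at 5.72 (lowest) and Rps6ka2 at 2.17 (highest), and mouse 2 stood apart for Slc35e3 at 3.83 (highest), and mouse 3 stood apart for Nfkb2 at 0.70 (lowest), and mouse 4 stood apart for Akr1d1 at 8.37 (highest), Cyp2c50 at 10.07 (highest) and Keap1 at 4.23 (lowest). In anti-CD40 mice without ABX, mouse 17 stood apart for Alb at 15.45 (lowest), and mouse 18 stood apart for Ttc6 at -0.61 (lowest), and mouse 20 stood apart for Gabbr2 at 3.29 (highest). In anti-CD40 mice with ABX, mouse 14 stood apart for AC121973.1 at -0.090 (lowest) and Aco1 at 6.70 (highest). Mouse 8 accounted for 6 of these, mouse 1 for 4 and mouse 4 for 3.

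The anti-CD40 effect differed between mice with and without ABX, by the edgeR test of the difference itself, for 65 named genes. Differences are log2 values, ABX minus no ABX. The enhanced rises were Lrmda (2.95), F830016B08Rik (1.99), Ripk2 (1.68), Kcna2 (1.5), Zbed3 (1.26), Ston2 (1.06), Gm5431 (1.06), Aox1 (1.04), Tgtp2 (1.02), Hivep1 (1.01), Slc35e3 (0.96), Slc6a6 (0.95), Fas (0.72), Ubr4 (0.56) and Keap1 (0.55). The blunted rises were Prr33 (-3.03), Gm13410 (-2.39), Atl1 (-2.36), Smox (-2.22), Gm37978 (-2.02), Gm13212 (-1.87), Rgs1 (-1.59), Egln3 (-1.49), Sat1 (-1.21), Coq8b (-1.20), Bhlhe40 (-0.91), Nostrin (-0.88), Nfkbia (-0.81), Cflar (-0.73) and Mrpl21 (-0.54). The enhanced falls were Adamtsl2 (-1.99), Ttc6 (-1.72), AC121973.1 (-1.67), Afp (-1.54), Gabbr2 (-1.22), Gm16157 (-1.13), Foxo1 (-1.07), Ube2h (-0.95) and mt-Nd1 (-0.61). The blunted falls were 9130409I23Rik (1.58), Slc16a12 (1.39), Tbx3 (1.39), Akr1d1 (1.18), Fam126b (1.05), Ubr2 (1.04), Chd9 (1.03), Aldh1a1 (0.95), Cyp3a59 (0.86), Aldh3a2 (0.82), Gpr146 (0.81), Ptprd (0.77), Cul2 (0.74), Slc12a7 (0.74), Ubr3 (0.62), Pfkm (0.60), Aco1 (0.54) and Suclg2 (0.45). The genes reversed from rise to fall were Rps6ka2 (-2.87), Per1 (-2.28), Anapc7 (-0.67) and Serp1 (-0.53). The genes reversed from fall to rise were Frat1 (1.25), Wwtr1 (0.86), Igf2r (0.68) and Pbrm1 (0.55). All 65 lost their call with plate column as a term, and 41 kept it whichever single mouse was left out.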

How the results depend on the processing

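With 166 differences called as reported, leaving out single mice gave 88 to 194. The same fits gave 53 to 120 blunted genes (103 as reported), 31 to 63 enhanced (55) and 3 to 13 reversed (8). They gave 225 to 380 ABX effects in anti-CD40 mice (350) and 89 to 157 in control mice (147). With plate column as a term, 0 differences were called, so that 0 genes were blunted, 0 enhanced and 0 reversed, and the called effects fell to 735 for anti-CD40 without ABX, 690 with ABX, 77 for ABX in control mice and 5 in anti-CD40 mice. Without mice 14, 15, 19 and 20, which leaves fewer samples, 79 differences were called, with 51 blunted, 26 enhanced and 2 reversed, and 170 ABX effects in anti-CD40 mice. An overlap of at least 200 bp tests fewer genes and gave 872 and 752 anti-CD40 effects without and with ABX, and 5 reversed genes. Reversed genes numbered 4 by DESeq2, 5 by limma voom and 4 with no filter on low counts, and the cause was not tested. Other settings kept the number of differences within 1.5 times, from 122 with no filter to 201 by DESeq2. Leaving out mice 8 and 11 together, chosen after seeing the data, gave 139. No named gene with a call changed sign. Of the 65 named calls, 14 were lost with no filter on low counts (Lrmda, Gm13212, Ttc6, Afp, Gm16157, 9130409I23Rik, Tbx3, Fam126b, Wwtr1, Nfkbia, Aldh3a2, Pfkm, Cul2 and Bhlhe40), 26 without mice 14, 15, 19 and 20, and 13 without mice 8 and 11. DESeq2 lost 1 (Lrmda), an overlap of at least 1 bp 3 (Ttc6, Afp and Gm16157), the wider attribution 3 (Ttc6, Gm16157 and Ubr3), and leaving out the mitochondrial genome 2 (Ttc6 and Afp). No paired analysis was possible because the groups share no replicate numbers. The depth of 5053014 to 7618736 counts, spread over short stretches, limits low genes such as Lrmda.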

Other observations

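Some genes with a called difference fell outside the naming rule, and the following were chosen after their values were seen. Among enhanced falls was Trib1, a scaffold for degradation of C/EBP factors that lowers plasma lipids (-0.73 ± 0.18, adjusted p = 0.0151, edgeR). Cpeb2, which controls the translation of polyadenylated mRNA, differed by -1.07 ± 0.21, with effects of -0.24 ± 0.15 and -1.32 ± 0.15. Of genes in other classes, Deptor, an inhibitor of mTOR, differed by 0.92 ± 0.22 and Rptor, the scaffold of mTOR complex 1, by 0.63 ± 0.15. Dusp5, a phosphatase of nuclear ERK, differed by -1.61 ± 0.44 and Fgfr2, a fibroblast growth factor receptor, by -0.75 ± 0.19.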
